A study of Mus musculus with 2 samples.

Results

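The 9 genes described here encode integrin chains and proteins that handle transforming growth factor-β (TGF-β), and they were taken by name from the 31053 mouse genes of a single-cell library of tumor T cells. Among them, Itgav and Itgb8 have products that pair as the integrin αvβ8, and Tgfb1 is the cytokine gene. The products of Itgae (the αE chain, CD103) and Itgb7 pair as αEβ7, and those of Itgb1 and Itga4 pair as α4β1. Itgax encodes CD11c and Sdc4 encodes syndecan-4. All 9 had UMIs (unique molecular identifiers, each standing for 1 captured transcript) and none was dropped. The cells were T cells sorted by their T cell receptor β chain from 2 kinds of tumor in C57BL/6J mice on day 9 after inoculation. One tumor was the melanoma line B16 and the other was B16–IL-33, the same line made to overexpress a secreted form of the cytokine IL-33, and the labels record no further treatment. Cells from both tumors carried hashtag antibodies and were pooled into 1 library, so there was no replicate of any population, no test across animals was possible, and every interval below is a 95% interval that covers counting error only.

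TGF-β1 is secreted bound to its own propeptide, which keeps it latent. It can be held on the surface of regulatory T (Treg) cells by GARP, the product of Lrrc32, and the integrin αvβ8 is known to bind the latent complex and release the active cytokine. The αE chain pairs with β7 and binds E-cadherin on epithelial cells, whereas α4 pairs with β1 or β7 to bind VCAM-1 or MAdCAM-1 on vessels and in tissue. CD11c is best known from dendritic cells and macrophages and is also found on some activated CD8+ T cells. Syndecan-4 is a membrane proteoglycan that carries heparan sulfate and acts beside integrins in cell adhesion.

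The library held 43420305 mouse UMIs on 14035 barcodes, and 9078 cells with 200 to 2500 detected genes and less than 5% mitochondrial UMIs were kept. Gates on single transcripts gave 2609 Treg cells (Foxp3 and no CD8 UMI, of which 504 had Il1rl1, the IL-33 receptor chain, and 2105 did not), 1260 CD8+ cells, and 1769 conventional CD4+ T (Tconv) cells with Cd4 but no Foxp3. A further 81 cells were gated on Zbtb16 (NKT gate) and 129 on Csf1r without Cd3e (myeloid gate), and 3270 kept cells passed no gate. Of the NKT-gate cells, 21 were also Tconv cells and 16 had the TRAV11–TRAJ18 join that defines invariant NKT cells, so most cells of that gate are named by the rule alone. The CD3 and CD2 genes summed to 3431 to 4084 CPM (a gate's UMIs of the gene per 1e+06 of all its UMIs, the unit of every level below) in the Treg, CD8+ and Tconv gates and 126 CPM in the myeloid gate, where Cd3e was at 0 by the gate. The 8 myeloid markers were all detected in the Treg, CD8+ and Tconv gates, at 289, 314 and 288 CPM in sum, against 13635 CPM in the myeloid gate. In the NKT gate 5 of them were detected, at 413 CPM. At least 1 such UMI was found in 13.6% of Treg, 23.3% of CD8+ and 11.3% of Tconv cells. The myeloid gate was also passed by 9 Treg, 5 CD8+ and 4 Tconv cells. Melanoma markers summed to 12.1 to 15.7 CPM in the Treg, CD8+ and Tconv gates. Median depth was 2780 UMIs per Treg cell, 3462 per CD8+ cell, 2498 per Tconv cell, 2939 per NKT-gate cell and 4863 per myeloid-gate cell, and shares of positive cells were therefore also taken after each cell was thinned to 1500 UMIs.

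The αv chain and its β8 partner were both highest in Treg cells. Itgav, on chromosome 2 (GRCm38, 83724397 to 83806916, plus strand), reached 248 CPM in Treg cells (238 to 259), 108 CPM in Tconv cells, 51.9 CPM in CD8+ cells, 43.1 CPM in NKT-gate cells and 41.6 CPM in myeloid-gate cells. The last 3 levels had overlapping intervals, while Treg and Tconv cells stood apart from them and from each other. Itgb8, on chromosome 12 (119158022 to 119238802, minus strand), gave 437 UMIs and 52.9 CPM in Treg cells, 18.5 CPM in Tconv cells and 4.55 CPM in CD8+ cells. No Itgb8 UMI was seen in 81 NKT-gate or 129 myeloid-gate cells, and the intervals of a count of 0 reach 13.3 and 5.68 CPM there. After thinning, 6.54% of Treg cells (5.54 to 7.67) had an Itgb8 UMI, compared with 1.59% of Tconv cells and 0.608% of CD8+ cells, and 29.3% of Treg cells had an Itgav UMI. These bars are among those shown for every gene by gate.

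**Figure D1:**
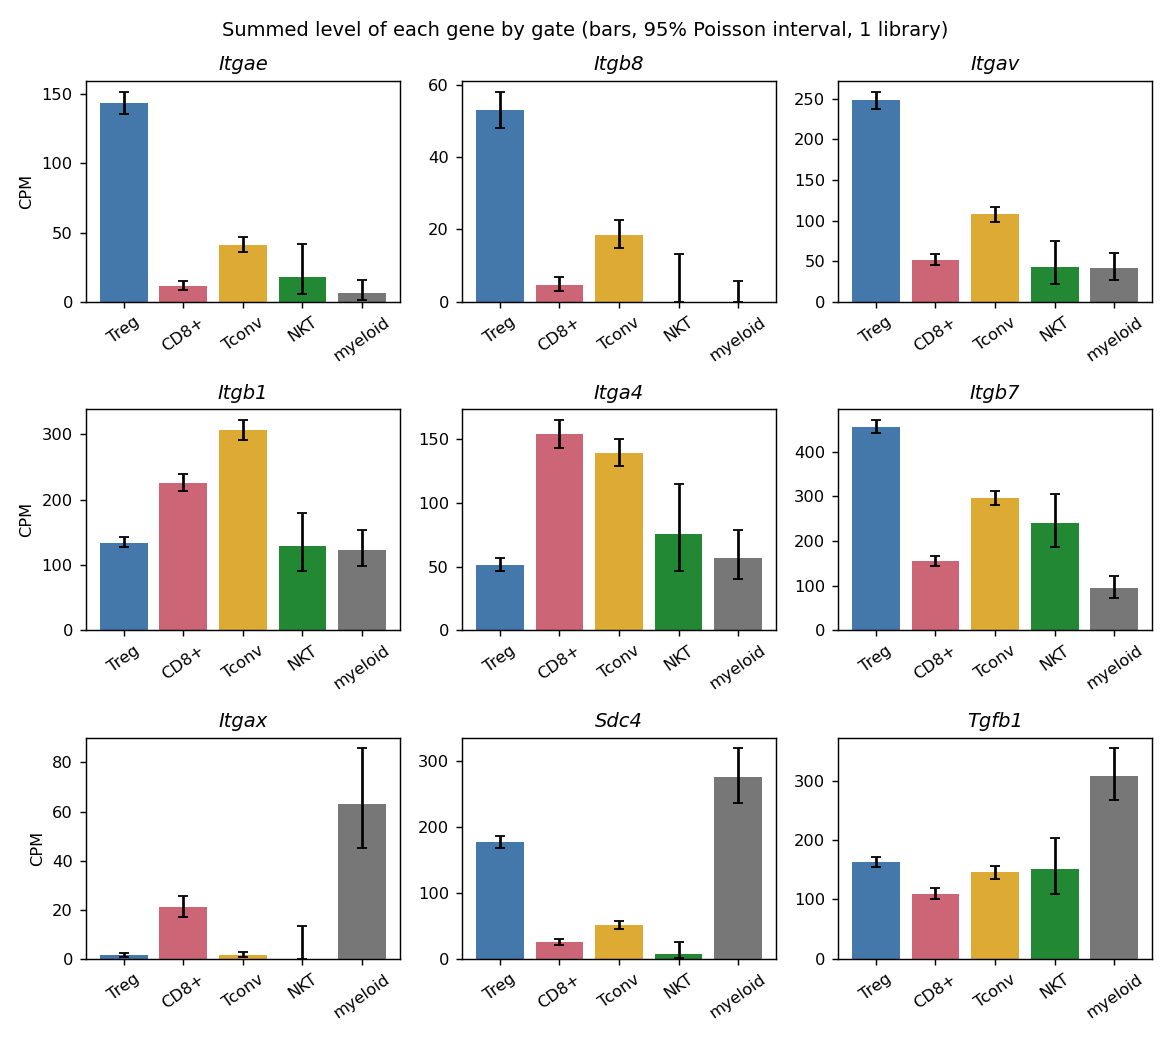
Level of each of the 9 genes in the Treg, CD8+, Tconv, NKT and myeloid gates, as CPM summed over cells, with the 95% Poisson interval of the count. Itgae, Itgb8, Itgav and Itgb7 are highest in Treg cells, Itgb1 is highest in Tconv cells, Itga4 is highest in CD8+ and Tconv cells, and Itgax, Sdc4 and Tgfb1 are highest in the myeloid gate. Gates with no bar had a count of 0.

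Tgfb1, on chromosome 7 (25687002 to 25705077, plus strand), differed far less between T cells. It stood at 163 CPM in Treg cells (155 to 172), 151 CPM in NKT-gate cells (109 to 204), 146 CPM in Tconv cells (135 to 157) and 109.6 CPM in CD8+ cells (101 to 119). Neighbours in the order from Treg to Tconv cells overlapped in their intervals, and CD8+ cells lay below Treg and Tconv cells. The myeloid gate was higher, at 308 CPM (267 to 354), and 36.4% of its thinned cells had a Tgfb1 UMI against 21.5% of Treg cells. Across the gates Tgfb1 had neither the order of Itgav nor that of Itgb8.

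Itgae and Itgb7 encode the αE chain (CD103) and the β7 chain of the integrin αEβ7. Itgae (chromosome 11, 73090583 to 73147446, plus strand) was at 144 CPM in Treg cells (136 to 152), 41.2 CPM in Tconv cells, 18.0 CPM in NKT-gate cells, 11.5 CPM in CD8+ cells and 6.16 CPM in myeloid-gate cells. Of CD8+ cells 3.02% had an Itgae UMI, or 1.74% once thinned, compared with 17.0% of thinned Treg cells and 0.847% of thinned myeloid-gate cells, the last from 1 cell. The NKT-gate interval, from 5 UMIs, overlapped those of its neighbours. Itgb7 (chromosome 15, 102215995 to 102231944, minus strand) was broader, with 456 CPM in Treg cells, 296 CPM in Tconv cells, 241 CPM in NKT-gate cells, 155 CPM in CD8+ cells and 95.5 CPM in myeloid-gate cells. Tconv and NKT-gate cells overlapped in their Itgb7 intervals, and the other neighbours did not. Itgb7, which also serves as a partner of α4, had a UMI in 20.3% of thinned CD8+ cells.

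Itgb1 and Itga4 were lower in Treg than in CD8+ and Tconv cells. Itgb1 (chromosome 8, 128685654 to 128733200, plus strand) was at 306 CPM in Tconv cells (291 to 322), 225 CPM in CD8+ cells (213 to 239), 134 CPM in Treg cells (127 to 143), 129 CPM in NKT-gate cells and 123 CPM in myeloid-gate cells. Itga4 (chromosome 2, 79255426 to 79333123, plus strand) was at 154 CPM in CD8+ cells (143 to 165), 139 CPM in Tconv cells (129 to 149.9), 75.5 CPM in NKT-gate cells, 57.0 CPM in myeloid-gate cells and 51.4 CPM in Treg cells. The CD8+ and Tconv intervals of Itga4 overlapped, as did those of the lower 3 gates for each gene. An α chain gene that is high in Treg cells, Itgav, and one that is low in them, Itga4, lie on the same chromosome. Itgae, also high in Treg cells, lies on chromosome 11 and had no matched promoter. The 250 bases before the RefSeq start sites of Itgav and Itga4 are shown to compare the promoters of these contrasting genes. They are on the plus strand of GRCm38.p6 (Itgav at chr2:83724147-83724396 and Itga4 at chr2:79255176-79255425). Capitals mark matches to 5 motifs, searched on either strand.
Itgav: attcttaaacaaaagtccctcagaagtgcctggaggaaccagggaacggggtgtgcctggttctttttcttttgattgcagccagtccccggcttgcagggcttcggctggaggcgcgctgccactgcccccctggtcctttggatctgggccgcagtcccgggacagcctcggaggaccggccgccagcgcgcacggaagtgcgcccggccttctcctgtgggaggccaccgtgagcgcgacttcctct
Itga4: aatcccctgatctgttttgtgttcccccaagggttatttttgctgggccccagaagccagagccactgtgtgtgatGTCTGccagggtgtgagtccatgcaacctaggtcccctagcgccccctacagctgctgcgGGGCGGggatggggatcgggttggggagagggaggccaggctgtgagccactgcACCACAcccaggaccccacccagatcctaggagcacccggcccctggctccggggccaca

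RefSeq promoters were matched for 8 of the 9 genes, and the shares below are over all 32851 promoters of that length. The core of the SMAD site, bound by the factors downstream of TGF-β receptors, was searched as CAGAC, which 42.2% of promoters hold. The AP-1 site of Fos and Jun proteins was searched as TGANTCA, which 6.75% of promoters hold. The cyclic AMP response element was searched as TGACGTCA, which 1.55% of promoters hold. The site of RUNX factors was searched as TGTGGT, which 14.0% of promoters hold. The GC box of Sp1 was searched as GGGCGG, which 32.7% of promoters hold. The Itgav window held no match to any of the 5, and the Itga4 window held 1 match each to the SMAD, RUNX and GC box letters, which do not overlap one another. Both windows were rich in G and C, at 64.4% for Itgav and 64.0% for Itga4 against a median of 52.4%. Itgav had 18 CpG dinucleotides and Itga4 had 6.

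Itgax was highest in the myeloid and CD8+ gates. The CD11c gene (chromosome 7, 128129547 to 128150657, plus strand) gave 63.2 CPM in myeloid-gate cells (45.3 to 85.7) and 21.0 CPM in CD8+ cells (17.2 to 25.4), against 1.45 CPM in Treg cells, 1.39 CPM in Tconv cells and no UMI in NKT-gate cells. A thinned CD8+ cell had an Itgax UMI in 3.48% of cases (2.49 to 4.70), compared with 0.186% of Treg and 0.138% of Tconv cells. Of the 12 Itgax UMIs in Treg cells, 91.7% came from the 71 Treg-gate cells that clustered with the myeloid-gate cells. Those cells held 3.43% of all Treg UMIs. In CD8+ cells, 79.2% of Itgax UMIs came from the cluster led by Gzma, Cd8b1 and Cd8a, which held 48.1% of all CD8+ UMIs.

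Sdc4 was the gene shared between Treg and myeloid-gate cells. Syndecan-4 (chromosome 2, 164424247 to 164443887, minus strand) was at 276 CPM in the myeloid gate (237 to 319), 177 CPM in Treg cells (168 to 187), 50.8 CPM in Tconv cells, 24.7 CPM in CD8+ cells and 7.19 CPM in NKT-gate cells, the last from 2 UMIs. The NKT-gate and CD8+ intervals overlapped and the other neighbours were apart. Thinned shares were 26.3%, 20.4%, 4.15%, 2.95% and 1.27% in the same order. Because the library reads the 5′ end of transcripts, levels are compared here between cells and not between genes.

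Treg cells were next compared with CD8+ cells. Of the 9 genes, 5 were at least 2-fold higher in Treg cells and 2 were at least 2-fold lower, where 12.3% of the 9288 genes with at least 50 UMIs over both groups differed by 2-fold in either direction. Itgae was 12.5-fold higher (9.61 to 16.6), Itgb8 11.6-fold (7.64 to 18.5), Sdc4 7.16-fold (5.96 to 8.67), Itgav 4.79-fold (4.21 to 5.47) and Itgb7 2.94-fold (2.73 to 3.18). Itgae and Itgb8 ranked 17 and 19 of the 9288 genes by this ratio. Itgax was 14.4-fold higher in CD8+ cells (7.93 to 28.8) and Itga4 2.99-fold (2.65 to 3.37), while Itgb1 was 1.68-fold higher in CD8+ cells and Tgfb1 1.49-fold higher in Treg cells. The ratio of the median gene was 1.16.

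Against Tconv cells, 4 genes were at least 2-fold higher in Treg cells and 2 at least 2-fold lower, 2 lay between and Itgax had too few UMIs, where 6.48% of 9280 genes passed 2-fold. Sdc4 was 3.49-fold higher, from 1464 and 255 UMIs, Itgae 3.48-fold, from 1187 and 207 UMIs, Itgb8 2.86-fold (2.28 to 3.61) and Itgav 2.30-fold (2.09 to 2.54). Sdc4 and Itgae ranked 61 and 62 of the genes compared. Itga4 was 2.71-fold higher in Tconv cells (2.40 to 3.06) and Itgb1 2.28-fold (2.11 to 2.46). Itgb7 was 1.54-fold and Tgfb1 1.12-fold higher in Treg cells. Both comparisons use the same Treg cells, so they are not independent of each other, and they are plotted side by side with that on Il1rl1.

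**Figure D2:**
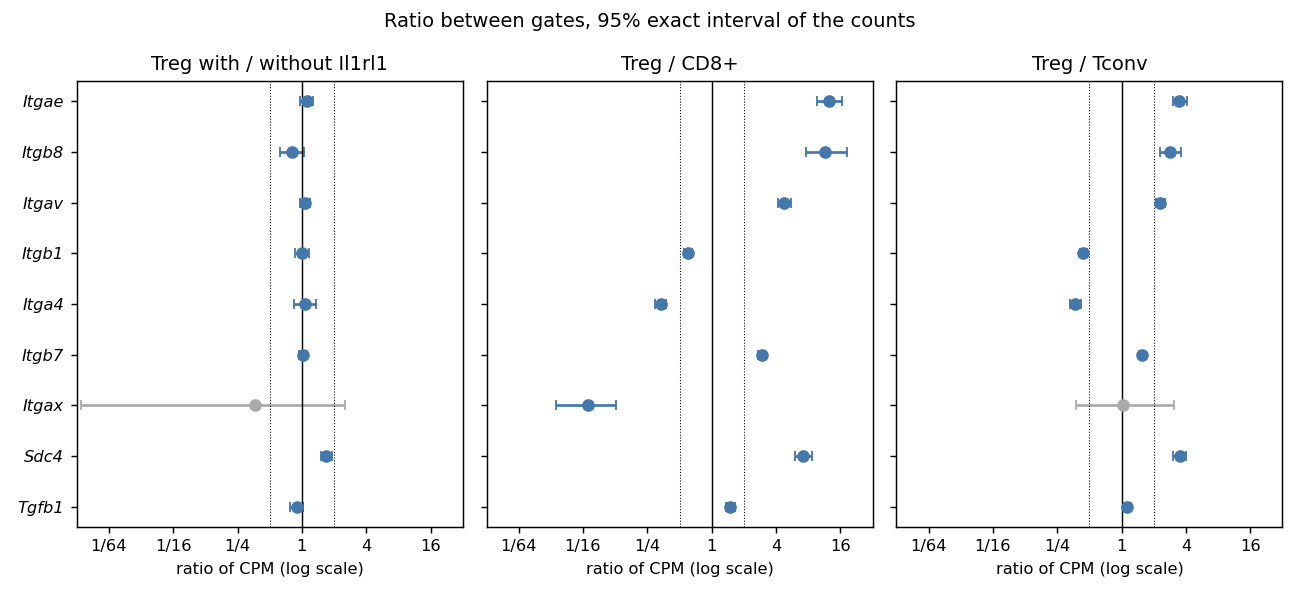
Ratio of CPM between gates for the 9 genes on a log scale, with the 95% exact interval of the counts, a solid line at 1 and dotted lines at 2-fold. Gray points have under 50 UMIs over both groups. In Treg cells with against without Il1rl1 no gene passes 2-fold and Sdc4, at 1.69, is the gene whose interval lies wholly above 1, whereas Itgae, Itgb8, Itgav and Sdc4 pass 2-fold over CD8+ and Tconv cells.

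The Tconv gate asks for no Foxp3 UMI, and it held cells with other Treg transcripts. Of the 1769 Tconv cells, 697 (39.4%) had a UMI of Il2ra or Ikzf2, and these were split from the other 1072 after the data were seen. Itgae was at 87.3 CPM in the former (74.9 to 101) and 10.3 CPM in the latter (7.01 to 14.6), and Itgb8 at 39.7 and 4.33 CPM. Itgav was at 205 and 42.3 CPM and Sdc4 at 101 and 17.0 CPM. For each of these 4 genes, Tconv cells without Il2ra and Ikzf2 had intervals that overlapped or lay below those of CD8+ cells. Itgb1 went the other way, at 236 and 354 CPM, and Itga4 was at 126 and 148 CPM with overlapping intervals.

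**Figure D3:**
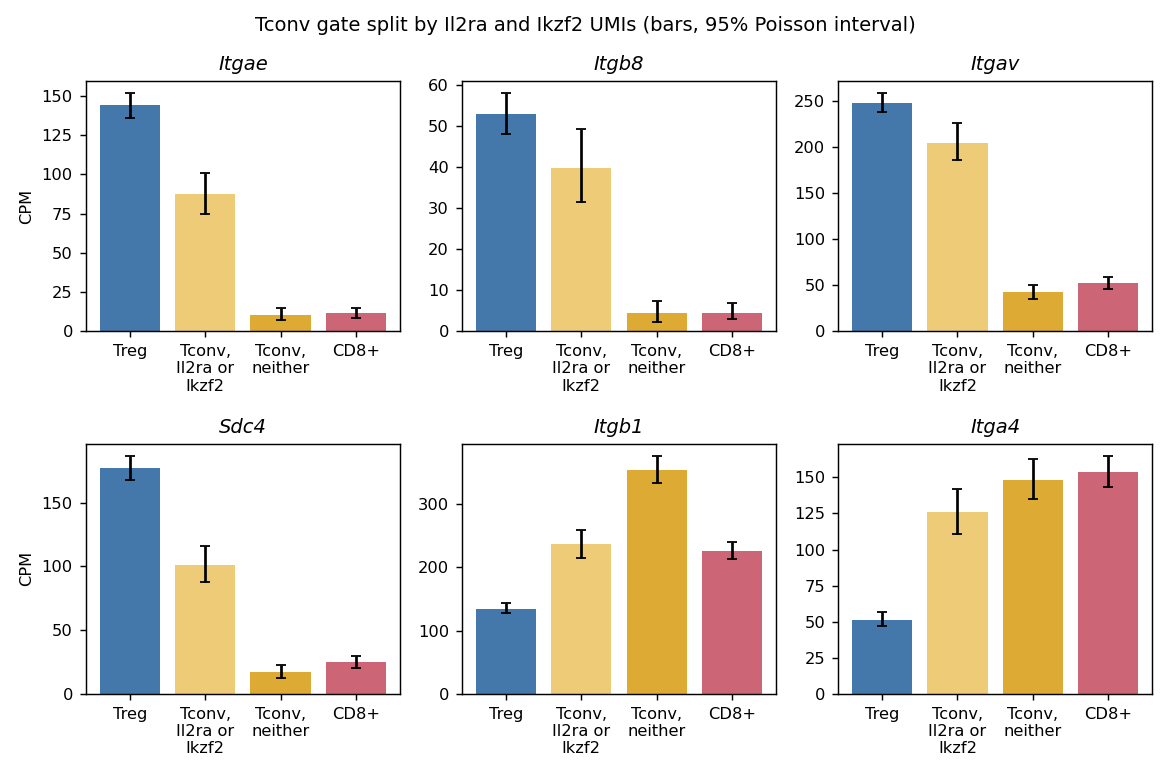
Level in CPM, with the 95% Poisson interval, of 6 genes in Treg cells, Tconv cells with a UMI of Il2ra or Ikzf2, Tconv cells with neither, and CD8+ cells. Itgae, Itgb8, Itgav and Sdc4 are high in the first 2 groups and low in the last 2, whereas Itgb1 is highest in Tconv cells with neither gene.

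Tconv cells also differed by the cluster in which they lay. The 783 Tconv cells of the cluster led by Ramp3, Cd40lg and Sorl1 had 54.5 CPM of Itgav, 5.08 CPM of Itgb8 and 12.9 CPM of Sdc4, whereas the 137 Tconv cells of the cluster led by Il10, Rln3 and Lag3 had 255, 60.1 and 137 CPM. Treg cells of the latter cluster were at 265, 61.2 and 165 CPM, with overlapping intervals for each of these genes. Itgb1 there was at 81.6 CPM (72.7 to 91.4) in Treg and 137 CPM (104 to 177) in Tconv cells. In the cluster led by Il1rl1 and Areg, Treg and Tconv intervals overlapped for Itgav and Itgb8. Sdc4 there was at 194 CPM (178 to 212) in Treg and 104 CPM (75.5 to 141) in Tconv cells. Itgb1 (176 and 240.2 CPM) and Itga4 (61.8 and 119 CPM) were also apart. When Tconv cells with Il2ra or Ikzf2 were left out, Treg cells were 13.9-fold higher for Itgae, 12.2-fold for Itgb8, 10.4-fold for Sdc4 and 5.87-fold for Itgav. Treg cells were not filtered. Il2ra was also the gene most like Itgav across clusters (Pearson r = 0.97), so these larger ratios are not independent of how the cells were chosen. Whether Tconv cells with Il2ra or Ikzf2 are Treg cells in which Foxp3 was not captured was not tested.

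CD8+ and Tconv cells differed by at least 2-fold for 5 genes, where 5.32% of 8652 genes did. Itgax was 15.0-fold higher in CD8+ cells (7.05 to 38.3). Itgb8 was 4.07-fold higher in Tconv cells (2.56 to 6.73), Itgae 3.59-fold (2.67 to 4.89), Itgav 2.08-fold (1.79 to 2.42) and Sdc4 2.05-fold (1.65 to 2.56). None of these 4 genes was higher in Tconv cells once those with Il2ra or Ikzf2 were left out. The ratios of CD8+ to Tconv cells were then 1.05 for Itgb8, 1.11 for Itgae, 1.23 for Itgav and 1.46 for Sdc4. CD8+ cells were not filtered in the same way. CD8+ cells of the cluster led by Gzma had 14.8 CPM of Sdc4 (10.4 to 20.5). That cluster held 28.8% of the Sdc4 UMIs and 48.1% of all UMIs of CD8+ cells. Over the whole gates, Itgb7 was 1.91-fold, Itgb1 1.36-fold and Tgfb1 1.33-fold higher in Tconv cells. Itga4 was 1.10-fold higher in CD8+ cells (0.996 to 1.22).

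Il1rl1 encodes a receptor chain for IL-33, the cytokine that sets the tumors apart, and the 9 genes were compared between Treg cells with and without its transcript. None of the 8 genes with enough UMIs reached 2-fold, where 3.22% of 8380 genes did. Sdc4 was 1.69-fold higher in cells with Il1rl1 (1.51 to 1.90), at 264 against 156 CPM, and ranked 172 of the 8380 genes. Thinned shares were 30.5% (26.1 to 35.1) and 17.9% (16.1 to 19.8), with intervals that did not overlap at equal depth. The other 7 ratios had intervals that included 1, namely Itgae at 1.11 (0.965 to 1.28), Itgav at 1.08 (0.971 to 1.20), Itga4 at 1.07, Itgb7 at 1.03, Itgb1 at 1.00, Tgfb1 at 0.897 (0.778 to 1.03) and Itgb8 at 0.811 (0.622 to 1.05). Itgax had 1 UMI in cells with Il1rl1 and 11 in cells without. The split rests on as little as 1 captured Il1rl1 UMI. The cluster led by Il1rl1 and Areg held 915 Treg-gate cells, more than the 504 Treg cells with an Il1rl1 UMI. Some cells without a UMI therefore lay in that cluster, and the part of missed Il1rl1 transcripts in these ratios was not tested.

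Myeloid transcripts were unevenly spread over the 2 Treg groups. The 8 myeloid markers summed to 161 CPM in cells with Il1rl1 and 321 CPM in cells without, although 13.7% and 13.6% of cells had at least 1 such UMI, and the 9 Treg cells that also passed the myeloid gate all lacked Il1rl1. The Sdc4 ratio was 1.76 without the cells of the cluster that holds all myeloid-gate cells. Graded by their own Il1rl1 count, 2105 Treg cells with 0 UMIs had 156 CPM of Sdc4, 256 cells with 1 had 296 CPM, 127 cells with 2 had 235 CPM and 121 cells with 3 or more had 233 CPM. All 3 positive groups lay above the negative one, and the intervals of the 3 overlapped. Itgb8 was at 55.0, 45.5, 35.8 and 50.5 CPM with overlapping intervals. Tgfb1 was at 125 CPM with 1 Il1rl1 UMI (102 to 152), below the 167 CPM with 0 (157 to 177), and at 164 and 180.0 CPM with 2 and with 3 or more.

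**Figure D4:**
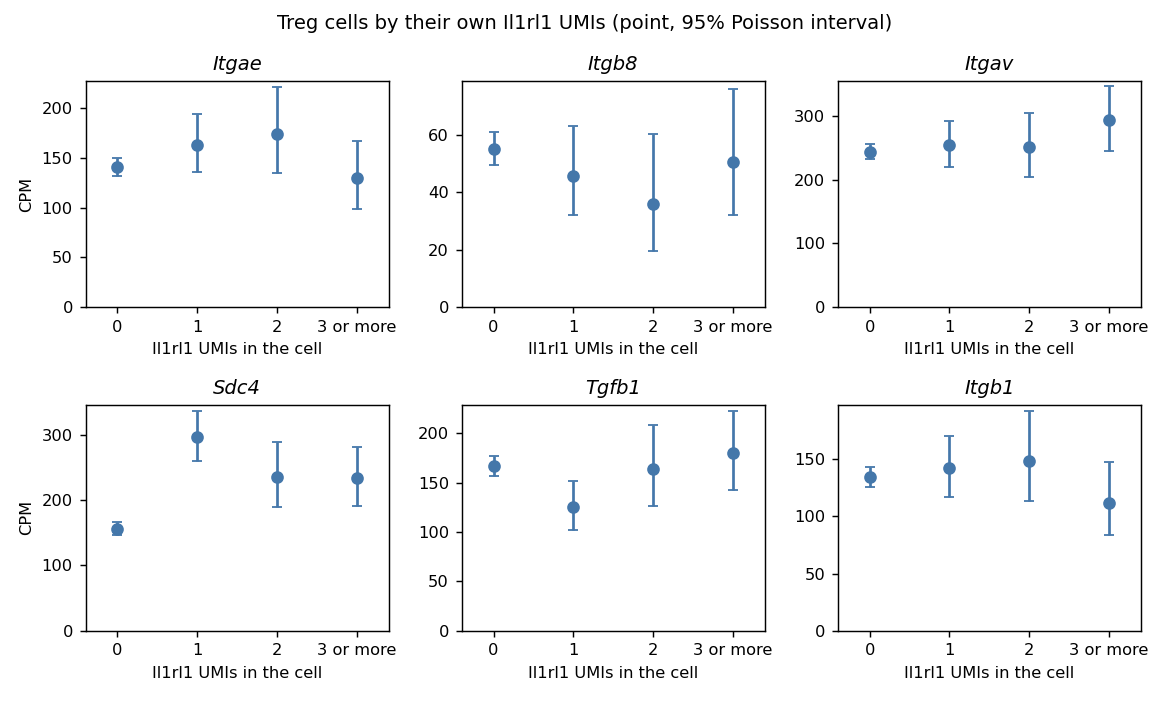
Level in CPM, with the 95% Poisson interval, of 6 genes in Treg cells with 0, 1, 2 and 3 or more Il1rl1 UMIs. Sdc4 is higher in every group with Il1rl1 than in the group without, while the intervals of Itgae, Itgb8, Itgav and Itgb1 overlap across the groups.

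Within Treg cells the 9 genes divided by cell state. The 266 Treg cells with Tcf7, a factor of naive and central memory T cells, had more Itga4 (119.7 against 41.7 CPM, ratio 2.87, 2.31 to 3.56) and more Itgb1 (252 against 118 CPM, ratio 2.14, 1.86 to 2.46) than the 2343 without. They had less Itgae (63.7 against 155 CPM), Itgb8 (24.1 against 57.0 CPM) and Sdc4 (95.6 against 189 CPM). Tgfb1 was lower as well, at 107 against 171 CPM. The 190 Treg cells with Ccr7, a receptor for entry into lymph nodes, gave Itga4 at 2.14-fold, Itgb1 at 1.37-fold, Itgae at 0.444-fold and Sdc4 at 0.532-fold the level of the rest. By Ccr7, Itgb8 (0.830, 0.576 to 1.16) and Tgfb1 (0.899, 0.741 to 1.08) had intervals that included 1. Median depth was 3422 UMIs with and 2704 without Tcf7, and 3966 and 2701 for Ccr7, and the part of depth was not tested.

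Treg cells were also split by the receptor gene Klrg1 and the growth factor gene Areg. With Klrg1, Itgb1 was 0.599-fold (0.526 to 0.682) and Itga4 0.699-fold the level of cells without, and Itgae, Itgb7 and Sdc4 were 1.23-fold, 1.24-fold and 1.24-fold, while Itgb8 was 0.894-fold (0.734 to 1.09). With Areg, Itgb8 was 1.37-fold (1.12 to 1.67), Sdc4 1.27-fold and Itga4 0.683-fold, while Itgb7 was 0.989-fold (0.922 to 1.06). Sdc4 was 0.722-fold in cells with the cytotoxic granule gene Nkg7 and 0.699-fold in cells with Pdcd1, which encodes PD-1. In cells with the proliferation gene Mki67, Itgav was 0.668-fold. Cells with each gate gene were deeper. Median depth was 3214 UMIs with and 2464 without Klrg1, and 2985 and 2704 by Areg. It was 3326 and 2456 by Nkg7, 3568 and 2666 by Pdcd1, and 3965 and 2714 by Mki67. The part of depth in these ratios was not tested.

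Among CD8+ cells, Itgax went with effector genes. Itgax was at 29.9 CPM in 668 cells with Gzmb, a cytotoxic protease, and 8.17 CPM in 592 cells without (ratio 3.67, 2.17 to 6.57). It was at 54.1 against 17.3 CPM by Cx3cr1, a receptor of terminal effector cells (ratio 3.12, 1.94 to 4.88), and Itga4 was 1.73-fold higher by the same gate. In cells with Tcf7, Itgax was 0.466-fold (0.280 to 0.747). Median depth of these CD8+ cells was 3908 UMIs with and 3047 without Gzmb, 3477 and 3461 by Cx3cr1, and 3832 and 3211 by Tcf7. The part of depth was not tested. Among Tconv cells, the 476 with Cd40lg, a helper T cell ligand, had 6.95 CPM of Itgae against 57.0 CPM in the rest. They had 369.8 CPM of Itgb1 against 277 CPM. Itgb1 was 1.64-fold higher (1.45 to 1.85) in the 223 Tconv cells with Ifng. Itgae was at 87.3 CPM in Tconv cells with Il2ra or Ikzf2 and 10.3 CPM in the other Tconv cells. Median depth was 2820.5 UMIs with and 2356 without Cd40lg, and 2866 and 2444 by Ifng. The part of this mixture and of depth was not tested.

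Chains that pair as receptors were then looked for in the same cell. In Treg cells, 209 of 2609 (8.01%) had both Itgav and Itgb8 UMIs, and Itgav was at 378 CPM in cells with Itgb8 and 228 CPM in cells without (ratio 1.66, 1.49 to 1.85). After thinning, 47.5% of Treg cells with Itgb8 had Itgav (39.1 to 56.1) against 28.0% without (26.1 to 30.0). For αEβ7, 528 Treg cells (20.2%) had both Itgae and Itgb7, and Itgae was at 142 CPM with and 148 CPM without Itgb7 (ratio 0.962, 0.846 to 1.10), while its thinned shares were 19.6% (17.2 to 22.2) and 14.8% (12.8 to 17.0). For α4β1, Itga4 was 1.89-fold higher in Treg cells with Itgb1 (1.55 to 2.29), and for α4β7 it was 0.917-fold in cells with Itgb7 (0.741 to 1.14). For the pair αvβ1, Itgav was lower in Treg cells with Itgb1, at 209 against 266 CPM (ratio 0.784, 0.710 to 0.866). Its thinned shares were 26.4% (21.9 to 31.3) and 29.9% (27.8 to 32.0), with overlapping intervals. Doublets were not removed and myeloid markers were found in 13.6% of Treg cells, and their part in cells with both UMIs was not tested. Treg cells of the shallow cluster led by Itih5 held 2.81% of all Treg UMIs. They held 15.8% of the Itgb8 and 10.4% of the Itgav UMIs of Treg cells. The part of that cluster in the Treg ratios was not tested.

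Itgb8 was also set against the cytokine gene and syndecan-4. In Treg cells Itgb8 was 0.799-fold in cells with Tgfb1 (0.654 to 0.973), and thinned shares were 6.03% with and 6.68% without. It was 1.14-fold in cells with Sdc4 (0.934 to 1.39), and Itgae was 1.49-fold in cells with Itgb8 (1.28 to 1.72). In Tconv cells with Itgb8, Itgav was 4.91-fold (3.84 to 6.20) and Itgae 6.30-fold (4.35 to 8.95), and 47 cells had both Itgav and Itgb8 UMIs. Itgb8 was 5.41-fold in Tconv cells with Sdc4 (3.43 to 8.41), but after thinning 3 of 60 cells with and 20 of 1387 cells without Sdc4 had Itgb8, shares whose intervals (1.04% to 13.9% and 0.883% to 2.22%) overlapped. By Tgfb1 it was 0.758-fold (0.466 to 1.20). The shallow cluster led by Itih5 held 37.6% of the Itgb8 UMIs of Tconv cells and 2.13% of all their UMIs. Tconv cells with Il2ra or Ikzf2 held 80 of the 93 Itgb8 UMIs of the gate, and Itgav, Itgae and Sdc4 were also higher in them. The part of this mixture of cells in the Tconv ratios was not tested.

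Clusters were formed with the 9 genes held out, so their levels by cluster were free to differ. Of the 16 clusters, the 2 that hold most Treg cells, led by Il10 and Rln3 and by Il1rl1 and Areg, had Itgb8 at 59.6 and 34.5 CPM and Itgb1 at 88.6 and 186 CPM. Among Treg-gate cells of these 2 clusters, Itgb8 was at 61.2 CPM (53.5 to 69.6) and 37.1 CPM (30.1 to 45.1), Itga4 at 29.4 and 61.8 CPM and Itgb1 at 81.6 and 176 CPM. Sdc4 was at 165 CPM (153 to 179) and 194 CPM (178 to 212). The lower Itgb8 and higher Itga4 and Itgb1 of the cluster led by Il1rl1 did not hold in both of the finer clusters with Il1rl1 among their leading genes. At the finer resolution these were led by Il1rl1, Cpm and Foxp3 and by Dgat2, Areg and Il1rl1. Itgb8 was at 23.1 CPM in the first and 65.1 CPM in the second, against 54.7 CPM in the finer cluster led by Il10. Itgb1 was at 241, 92.9 and 90.1 CPM and Itga4 at 88.1, 34.1 and 34.1 CPM in the same order, and in these genes the second overlapped the Il10 cluster in its intervals while the first did not. Sdc4 was at 118 CPM in the first, 304 CPM (283 to 326) in the second and 126 CPM in the Il10 cluster. The cluster led by Igfbp4, Dapl1 and Ccr7 was low for most genes, with 43.8 CPM of Itgb1 and 6.74 CPM of Sdc4.

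One shallow cluster had the highest levels of 6 genes among the 13 clusters of at least 50 cells. Its 459 cells, led by Itih5, Neb and Csf1, had a median of 923 UMIs per cell, 7.57% ribosomal protein UMIs and 17416 CPM of Malat1, a nuclear RNA, whereas the 2 main Treg clusters had medians of 3065 and 2272 UMIs, 21.7% and 22.5% ribosomal protein UMIs and 4850.5 and 5487 CPM of Malat1. Its 198 Treg-gate cells had Itgb8 at 298 CPM (232 to 377), Itgav at 923 CPM, Itgae at 543 CPM, Sdc4 at 677 CPM and Itgb7 at 923 CPM. They held 2.81% of Treg UMIs but 15.8% of Treg Itgb8 UMIs. Its 101 Tconv-gate cells were alike, with Itgb8 at 327 CPM and Sdc4 at 719 CPM. Another shallow cluster, with 522 UMIs per cell and 19056 CPM of Malat1, had the highest Itgb1 (775 CPM) and Itga4 (287 CPM). The part of depth and RNA quality in these levels was not tested. Without both clusters, Treg cells were 12.8-fold above CD8+ cells for Itgb8.

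**Figure D5:**
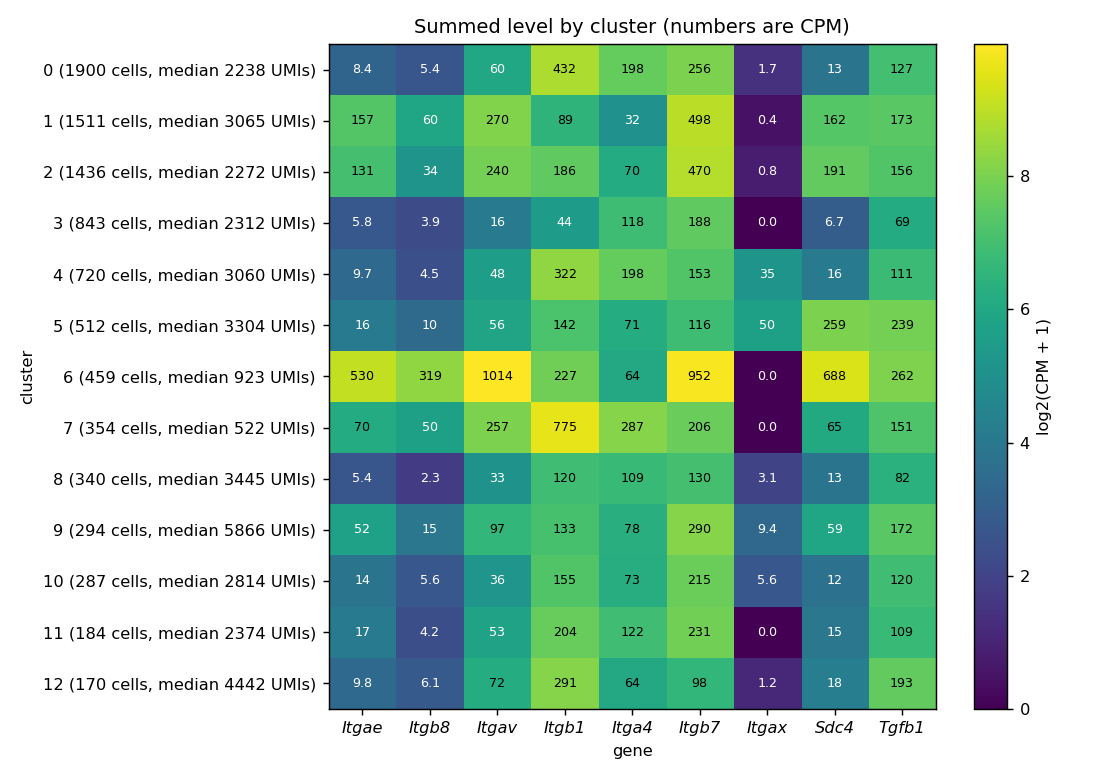
Level of the 9 genes in the 13 clusters of at least 50 cells, as CPM (numbers) and log2(CPM + 1) (color), with each cluster's cells and median UMIs per cell. Cluster 6, with a median of 923 UMIs, is highest for Itgae, Itgb8, Itgav, Itgb7, Sdc4 and Tgfb1, cluster 7, with 522, for Itgb1 and Itga4, and cluster 5, which holds the myeloid-gate cells, for Itgax.

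Across the 16 clusters, the genes whose log2(CPM + 1) was most like each member were listed as a description, since clusters share 1 library and differ in depth. Itgae and Itgb8 were among each other's 3 closest genes of 5397 (Pearson r = 0.95), and Il10, an inhibitory cytokine, was close to both (0.97 and 0.94), followed by Sv2c for Itgae (0.95) and Tank for Itgb8 (0.93). Itgav was closest to Il2ra, the IL-2 receptor α chain (0.97), then Lrp10 (0.95). Sdc4 was close to Tmed7 (0.93) and Soat1 (0.89), and Itgb7 to Cmtm6 (0.99), Rps6ka1 (0.98) and Stk10 (0.97). Itgb1 was closest to Il18rap (0.79), Ramp3 (0.79) and Il18r1 (0.77), and Itga4 to Gramd3 (0.89), Galnt7 (0.83) and Lax1 (0.83). Tgfb1 was closest to Ralgds, Dennd5a and Stx11 (0.93 each), and Itgax to Slamf7 (0.72), Ms4a6d (0.70) and Tagln2 (0.69).

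The rest of the TGF-β pathway was read from lists of named genes. Of 18 genes that store or activate TGF-β, 8 had enough UMIs against CD8+ cells, and 5 were at least 2-fold higher in Treg cells and 0 lower, where 885 of all 9288 genes were higher and 259 lower, with a median ratio of 2.57 against 1.16 over all genes. Lrrc32, which encodes GARP, was 11.1-fold higher (7.39 to 17.3), at 54.7 against 4.95 CPM. The protease gene Mmp9 was 7.76-fold higher, Thbs1, whose product can activate TGF-β, 3.99-fold, Mmp14 2.94-fold and Furin, which cleaves the propeptide, 2.21-fold. Against Tconv cells 3 of 8 were at least 2-fold higher, as were 408 of all 9280 genes, Lrrc32 at 3.66, Thbs1 at 2.94 and Mmp14 at 2.19, with a list median of 1.53 against 1.07. Thbs1 was at 774 CPM in the myeloid gate and 22.9 CPM in Treg cells, and the part of myeloid cells in its Treg level was not tested. Of 17 receptor and signaling genes, 1 of 14 passed 2-fold against CD8+ cells, Tgfbr1 (2.87-fold higher in Treg cells), and 1 of 15 against Tconv cells, Tgfbr3 (5.02-fold higher in Tconv cells). Those shares are near or below the 12.3% and 6.48% of all genes.

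Other adhesion genes were read in the same way, against the 12.3% and 6.48% of all genes that passed 2-fold. Of 15 genes of integrin activation, 13 were compared, and Rasgrp2, an activator of Rap1, was 2.50-fold higher in CD8+ and 2.57-fold higher in Tconv cells than in Treg cells. Of 13 syndecan and heparan sulfate genes, 11 were compared, and Sdc3 (3.01), Hpse, encoding heparanase (2.77), and Ext1 (2.41) were higher in Treg than in CD8+ cells, and Hpse (2.58) than in Tconv cells. Of 19 other integrin chains, 8 were compared, and Itga3 was 4.28-fold higher than in CD8+ and 2.13-fold higher than in Tconv cells, whereas Itga1 was 2.63-fold higher in CD8+ cells. Of 9 ligand genes, none of 3 passed 2-fold against CD8+ cells, and against Tconv cells Spp1 (2.31-fold higher in Treg cells) and Icam2 (2.34-fold higher in Tconv cells) did. Spp1 was at 5144 CPM in the myeloid gate. Between CD8+ and Tconv cells Spp1 was 2.10-fold higher in CD8+ cells, and Lrrc32, Furin, Mmp9, Tgfbr3, Sdc3 and Ext1 were 2.05-fold to 4.34-fold higher in Tconv cells.

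With Il1rl1, Ext1, which builds heparan sulfate, was 2.17-fold higher (1.23 to 3.73, from 22 and 41 UMIs). It was the 1 of 11 syndecan and heparan sulfate genes to pass 2-fold, where 3.22% of all genes did, and the list had a median ratio of 0.739. Spp1 (2.44 against 71.6 CPM), Plaur (0.611 against 10.3 CPM) and Tgfbi (3.05 against 20.2 CPM) were lower in cells with Il1rl1. These 3 genes were at 5144, 502 and 759.7 CPM in the myeloid gate, and the myeloid markers differed between the 2 groups in the same direction. Lists of TGF-β storage and of receptors and signaling had medians of 1.06 and 1.23 against 1.00 over all genes.

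In NKT-gate cells, 4 genes were at least 2-fold lower than in Tconv cells without Zbtb16, and 14.6% of 7200 genes passed 2-fold. They were Sdc4 (7.19-fold, 1.97 to 59.7, from 2 UMIs), Itgav (2.51-fold, 1.43 to 4.89), Itgb1 (2.39-fold, 1.72 to 3.42) and Itgae (2.33-fold, 0.984 to 7.26, from 5 UMIs). Itgb8, with no UMI, was at least 1.39-fold lower by the limit of its interval. Itgb7 (0.818) and Tgfb1 (1.03) had intervals that included 1, and Itga4 was at 0.538. Itgb3, another partner of αv, was 2.15-fold higher in NKT-gate cells (1.53 to 2.96), Smad3 2.57-fold and Nrros 2.06-fold. Furin (2.30-fold) and Prkca (2.55-fold) were at least 2-fold lower. So was Spp1 when its count of 0 UMIs was set to 3, while the interval of its ratio reached 0.527. Smad2 had 1 UMI and a ratio of 0.160 (0.00401 to 0.909). Lrrc32 (0.240, 0.00599 to 1.38), Smurf2 (0.480, 0.0570 to 1.79) and Sdc3 (0.348, 0.00864 to 2.03) had 1, 2 and 1 UMIs and intervals that included 1.

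Myeloid-gate cells differed from T cells for 7 genes, where 37.9% of 9960 genes passed 2-fold. Itgax was 9.54-fold higher (6.52 to 13.7), Sdc4 2.75-fold (2.34 to 3.21) and Tgfb1 2.15-fold (1.85 to 2.49). Itgae was 12.9-fold lower (5.02 to 47.3), Itgav 3.75-fold and Itgb7 3.45-fold lower, and Itgb8 at least 5.31-fold lower by the limit of its interval. One myeloid-gate cell held 21 Sdc4 UMIs, the most of any cell of the gates. Among storage genes Thbs1, Plaur, Plau, Mmp14, Nrros and Furin were higher, and Lrrc32, Mmp9 and Itgb3 were lower. Nrros, which anchors latent TGF-β1 on myeloid cells, was at 176 CPM and Lrrc32, its counterpart on Treg cells, at 1.54 CPM, against 25.2 and 30.2 CPM in the T cells. Integrin ligands Spp1 and Fn1 were 127-fold and 103-fold higher, and of the dendritic cell markers Zbtb46 and Xcr1 gave 0 UMIs, Clec9a 2 and Cd209a 23, with the 5 markers at 40.1 CPM in sum.

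Cells were also split by T cell clone, since the TCR was sequenced from the same cells. In CD8+ cells, 200 cells of 73 expanded clones (at least 2 cells) had 33.4 CPM of Itgax against 17.5 CPM in 721 cells of single clones (ratio 1.90, 1.19 to 2.99), and Itga4 was 1.34-fold higher (1.13 to 1.60). Itgb7 was 0.678-fold (0.547 to 0.835), and Itgae had 0 UMIs in expanded and 41 in single cells. In Treg cells, 98 cells of 46 expanded clones had 26.5 CPM of Itga4 against 54.2 CPM (ratio 0.489, 0.222 to 0.940, from 9 UMIs) and 215 CPM of Tgfb1 against 162 CPM (ratio 1.32, 1.03 to 1.68). Itgb8, at 1.46-fold, and Sdc4, at 0.794-fold, had intervals that included 1. In 63 Tconv cells of expanded clones Itgb1 was 1.61-fold higher (1.31 to 1.97) and Itgav 0.275-fold (0.100 to 0.604, from 6 UMIs). Cells of 1 clone share their origin, so these intervals are too narrow for a statement about clones.

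Few cells could be given to a tumor. Of the 9078 kept cells, 8946 were also in the hashtag library and 939 had tag UMIs of 1 tumor alone. A cell was assigned on as little as 1 tag UMI. Among Treg cells, 55 carried B16–IL-33 tags and 245 B16 tags, and Sdc4 was at 298 CPM (224 to 389) in the former and 135 CPM (113 to 161) in the latter, a ratio of 2.21 (1.58 to 3.06). Itgae was at 221 against 121 CPM (ratio 1.82, 1.24 to 2.63), Itgav at 315 against 215 CPM (1.47, 1.07 to 1.98) and Itgb8 at 88.3 against 47.8 CPM (1.85, 0.975 to 3.33). The share of Treg cells with Il1rl1 was 23.6% (13 of 55) and 4.90% (12 of 245), against 504 of 2609 Treg cells in all. With at least 2 tag UMIs 2 Treg cells of the B16–IL-33 tumor were left, and they had 0 UMIs of Sdc4, Itgae, Itgav and Itgb8. Within Treg cells without Il1rl1, 42 against 233 cells, Sdc4 was at 227 and 136 CPM (ratio 1.67, 1.10 to 2.47) and Itgae at 199.5 and 121 CPM (1.64, 1.05 to 2.50). One cell gave 9 of the 33 Sdc4 UMIs of the former, and 14 of 42 and 66 of 233 cells had a Sdc4 UMI. The labels do not tie cells to mice, so tumor and mouse cannot be told apart.

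The other 5 genes in Treg cells had tag ratios whose intervals included 1. In CD8+ cells, 19 with B16–IL-33 and 103 with B16 tags, Itgb1 was at 142 against 267 CPM (ratio 0.534, 0.268 to 0.971) and each other gene had an interval that included 1. In Tconv cells, 17 against 164, Sdc4 was at 225 against 39.4 CPM (ratio 5.71, 2.36 to 13.1), which rests on 10 and 18 UMIs. Itgb1 in these cells was at 203 and 269 CPM with overlapping intervals.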

How the data were processed

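One gene expression library was analysed with its hashtag and TCR libraries, made from hashtag-labelled T cells that had been pooled over both kinds of tumor. The authors deposited raw UMI counts for each gene and barcode, not normalized, aligned with Cell Ranger to human and mouse (mm10) genomes together. The matrix header names version 3.1.0 and the submitters' processing notes name 6.1.1. Human genes took 0.0197% of UMIs and were left out. Hashtag and TCR contig values were likewise deposited as UMI counts.

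Cells with 200 to 2500 genes and less than 5% mitochondrial UMIs were kept. No doublet was removed, and 428 kept cells had at least 2 productive β chains. Counts were summed by gate and scaled to CPM. Intervals are exact Poisson for levels, Clopper-Pearson for shares and exact conditional binomial for ratios, at 95% (SciPy 1.17.1). Genes with at least 50 UMIs over both groups were compared, 2-fold means a ratio of at least 2 or at most 0.5, and a group at 0 was given a floor of 3 counts. Shares came from 1 random thinning to 1500 UMIs, which left out 454 Treg, 109 CD8+, 322 Tconv, 2 NKT-gate and 11 myeloid-gate cells. Clusters came from Seurat 5.3.0 (R 4.3.3, 2000 variable genes, 50 principal components, resolution 0.8) with the 9 genes and TCR genes held out. Gene coordinates are from GENCODE vM21. Cells of 1 library are not replicates, so no p-value is given.

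The ratio step was run on simulated counts of 8380 genes for Treg cells split by Il1rl1, and 99.0% of 200 changed genes came out in the simulated direction. The intervals covered the simulated ratio in 93.5% of changed and 95.5% of other genes. The text names the 9 genes, the 3 genes most like each across clusters, and the listed pathway genes past 2-fold, and all of these were chosen with earlier results of these data known. A few genes that this rule or the cell state gates would name are not reported here. Settings tried in turn are given in the closing section, and 5 of them were added after the data were seen.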

Additional observations from a re-analysis of the deposited data

Results flagged for a closer look

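The 3270 kept cells that passed no gate were not part of any comparison, and all 9 genes were detected in them above the limit that a count of 0 allows. Their median depth was 1965 UMIs, and 89.9% had a UMI of Cd3d, Cd3e, Cd3g or Cd2, while 53.7% had one of Foxp3, Il2ra, Ikzf2 or Ctla4. Integrin chains of the Treg pattern were at 51.6 CPM (Itgae), 22.5 CPM (Itgb8), 121 CPM (Itgav) and 284 CPM (Itgb7), and Sdc4 was at 94.1 CPM. Itgb1 was at 232 CPM, Itga4 at 119.6 CPM, Itgax at 8.53 CPM and Tgfb1 at 143 CPM. The levels of the first 5 genes lie below those of the Treg gate and above those of the CD8+ gate.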

How the results depend on the processing

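Of 565 recomputed ratios of the 9 genes, 442 moved by less than their counting interval, 113 moved by more and 10 changed direction. Sdc4 by Il1rl1 ranged from 1.46 to 1.77 over 10 settings, and Treg over CD8+ cells from 12.1 to 13.7 for Itgae, 7.61 to 15.0 for Itgb8, 3.90 to 5.31 for Itgav and 4.99 to 9.18 for Sdc4. Treg over Tconv cells ranged from 2.59 to 16.8 for Itgae, 2.12 to 12.2 for Itgb8, 1.83 to 5.87 for Itgav and 2.59 to 10.4 for Sdc4. Of 54 thinned shares, 39 moved beyond their interval, and the highest cluster level of each of the 9 genes stayed within its counting interval when cells were clustered more finely. With 20 instead of 50 UMIs, which tests more genes, 629 passed 2-fold by Il1rl1, 943 for Treg against Tconv, 823 for CD8+ against Tconv and 1689 for NKT-gate cells. Treg against Tconv gave 919 genes when Tconv cells of clusters 1, 2 and 6 (led by Il10, Il1rl1 and Itih5) were left out. It gave 1013 without Tconv cells that had Il2ra or Ikzf2. Treg and CD8+ cells were left unfiltered in both settings. In both, 0 of the 9 genes were lower in CD8+ than in Tconv cells by 2-fold, and ratios of CD8+ to Tconv cells changed direction, to 1.34 (Itgae) and 1.30 (Sdc4) in the former and 1.11 (Itgae), 1.05 (Itgb8), 1.23 (Itgav) and 1.46 (Sdc4) in the latter. CD8+ against Tconv gave 869 genes with no upper limit on detected genes, and 233 in cells of 2000 to 4000 UMIs, where 0 of the 9 genes were higher and 1 was lower by 2-fold. Without clusters 6 and 7, the shallow ones, 2 of the 9 genes were lower in CD8+ than in Tconv cells and 2 in NKT-gate than in other Tconv cells. With all clusters kept, 4 of the 9 were lower in each, where 283 of 8652 and 813 of 7200 genes were. The share over all genes without clusters 6 and 7 is not given here, so these counts are not read against it. Small counts also changed direction: Itgav in NKT-gate cells to 1.02 and Itgb8 in myeloid-gate cells, at the floor, to 1.06 in cells of 2000 to 4000 UMIs, and Sdc4 in NKT-gate cells to 1.33 with at least 2 defining UMIs. With at least 2 tag UMIs, 2 Treg cells of the B16–IL-33 tumor remained, and the tumor ratios of Sdc4, Itgae, Itgav and Itgb8 were 0. Apart from fewer cells or more genes, the cause was not tested. No paired analysis was possible because there is 1 library with no replicates.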
